A study of Mus musculus with 4 samples.

Results

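The Slc25 family holds the mitochondrial carriers, small membrane proteins that exchange metabolites, nucleotides, cofactors and ions across the inner membrane of mitochondria. Their transcripts were followed in cultured mouse macrophages with and without inflammatory stimulation. The members were taken by symbol: every name made of Slc25a and a number, except 1 symbol that is not analysed here. That gave 43 of the 18256 genes listed for each library. Wild-type bone marrow cells had been turned into macrophages over 7 days in medium with 20 ng/ml of the growth factor MCSF. M0 macrophages were unstimulated. M1 macrophages were exposed for 24 h to LPS at 100 ng/ml, a component of the bacterial outer membrane, together with the cytokine IFN-γ at 20 ng/ml; whether MCSF stayed in that medium is not given in the sources used here. Each group has 2 libraries, and both groups share genotype, tissue and differentiation; strain, age and sex of the mice are not given in the sources used here. Nothing in the labels says that the 2 libraries of a group came from separate mice or dishes, so the p-values measure the spread between libraries, which may be technical.

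Most carriers share a fold built of repeated pairs of membrane helices and move 1 substrate in while another moves out. Citrate, malate, 2-oxoglutarate, aspartate and glutamate pass through them, which ties the TCA cycle to synthesis in the cytosol. ADP and ATP also cross by this route, as do phosphate, iron, CoA, NAD and glutathione. Macrophages stimulated with LPS are known for a rewired TCA cycle in which citrate and succinate are put to other uses, and these carriers are the doors that such metabolites must use.

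Library totals ran from 15921466 to 18987705 counts, and 12966 genes passed the filter on low counts. Levels are counts per 1000000 (CPM) of library total times TMM scaling factor, and 3 counts in a library equal 0.144 to 0.185 CPM. Of 8 macrophage markers, including Adgre1, Csf1r and Cd68, all were measured, with summed levels of 20682 and 22989 CPM in M0 and 29692 and 29207 CPM in M1; 4 of them were higher and 2 lower. The stimulation was visible in the hallmark gene Acod1, which rose from 8.63 ± 1.15 to 2255 ± 21 CPM (SD, n = 2 libraries, as for every mean here). The 9 neutrophil markers summed to 255 and 271 CPM in M0 and to 161 and 121 CPM in M1, with 6 of 8 tested lower and 1 higher. The 7 markers of dividing cells summed to 717 and 654 CPM in M0 and to 561 and 575 CPM in M1, with 2 lower. Of 6 adipocyte markers 3 were listed, summing to 95.7 and 98.3 CPM in M0 and to 2.15 and 2.95 CPM in M1, nearly all of it Fabp4, which macrophages also express. In bulk RNA, fewer cells of a type and less RNA per cell cannot be told apart, and the part of these other cells in the carrier results was not tested.

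Of the 43 carrier genes, 38 could be tested. In M1, 11 rose, 9 fell and 18 did not pass (edgeR quasi-likelihood test, Benjamini-Hochberg adjusted p under 0.05 over all genes). The called share was 52.6%, close to the background: 48.2% of all tested genes were called, 24.2% higher and 24.0% lower. With libraries scaled by their totals alone, 7 carriers were higher and 14 lower. Under that scaling 33.3% of called carriers were higher, beside 29.8% of all called genes. The median log2 fold change of the tested carriers was 0.05, beside -0.02 for all tested genes, and their median absolute change 0.57, beside 0.47. Of the called carriers 4 at least doubled (Slc25a22, Slc25a37, Slc25a10 and Slc25a12) and 3 at least halved (Slc25a27, Slc25a23 and Slc25a30). Values of the 2 groups did not overlap for 31 of the 38, against 74.9% of all tested genes. No called carrier had overlapping groups, which follows largely from selecting genes by their call. Fewer carriers were called in each direction without either M0 library, in fits that keep 1 M0 library. The called share of all genes was not taken there, so this drop cannot be read as particular to the carriers. The carriers' median was 0.014 without M0 replicate 1 and 0.127 without M0 replicate 2. Over all tested genes it was -0.005 and -0.010.

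**Figure D1:**
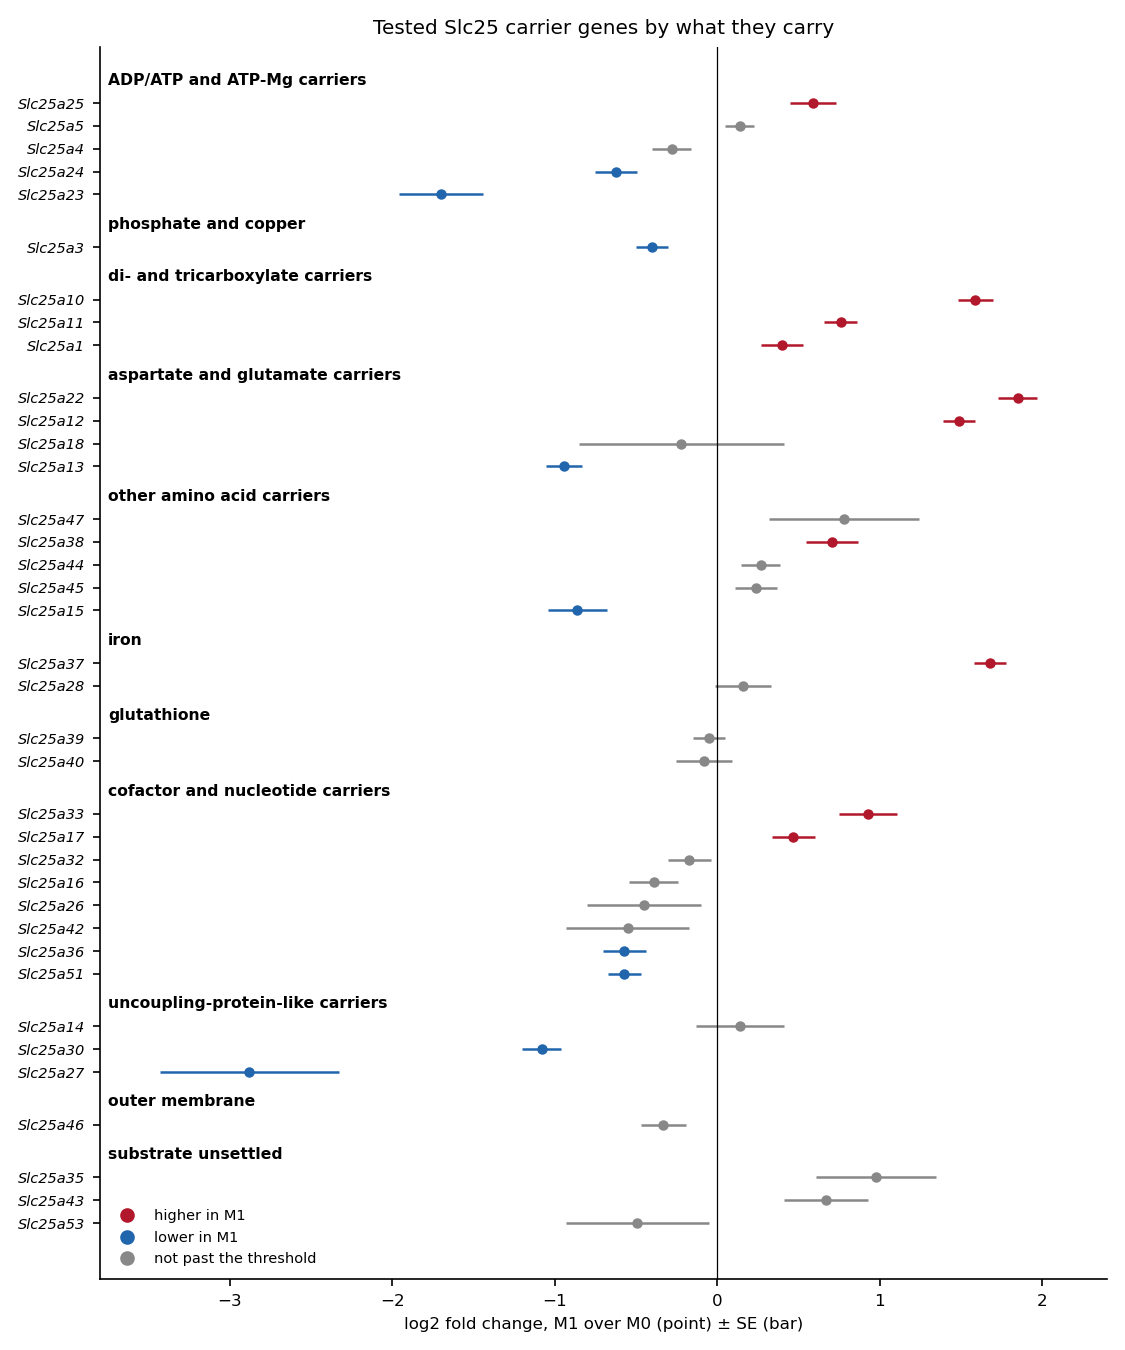
Log2 fold change of M1 over M0 (x axis) for the tested carrier genes described here, grouped by what they carry; points are fitted values and bars 1 SE, with red for higher, blue for lower and grey for genes not past the threshold. The 3 tested di- and tricarboxylate carriers all lie to the right of 0, while several sets hold red and blue points together.

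All 3 tested carriers of di- and tricarboxylates rose. Slc25a10, the dicarboxylate carrier, which exchanges malate or succinate for phosphate (NCBI gene build GRCm38.p6, chromosome 11, 120491837 to 120501161), stood at 59.0 and 58.7 CPM in the M0 libraries and at 189 and 165 CPM in the M1 libraries. Both M1 values lie far above both M0 values, a 3.01-fold rise (log2 fold change 1.59 ± 0.11 SE, adjusted p = 4.04e-07). Slc25a11, which exchanges 2-oxoglutarate for malate and belongs to the malate-aspartate shuttle (chromosome 11, 70644019 to 70647531), had 117 and 112 CPM in M0 and 199 and 190 CPM in M1. An overlapping gene on the other strand, Rnf167, covers 8.92% of its exons. The groups were well apart, with a 1.70-fold rise (0.76 ± 0.10, adjusted p = 6.25e-05). Slc25a1 encodes the citrate carrier, which brings citrate to the cytosol for lipid synthesis. Its values were 30.7 and 33.9 CPM in M0 against 42.4 and 42.9 CPM in M1, a smaller rise of 1.32-fold (0.40 ± 0.13, adjusted p = 0.0215). The call of Slc25a1 was lost in each fit that left out 1 library and so kept a single library in 1 group. Its log2 fold change was then 0.33 and 0.48 without M0 replicates 1 and 2. It was 0.41 without either M1 replicate. Slc25a21, a carrier of oxodicarboxylates, had no count in any library, which allows a level of up to 0.144 to 0.185 CPM. Among neighbouring enzymes, Mdh2, the malate dehydrogenase of the mitochondrial matrix, rose from 208 ± 14.0 to 338 ± 12.6 CPM. Acly, which splits exported citrate, did not pass (199 ± 0.782 CPM unstimulated, 198 ± 12.5 CPM stimulated).

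Carriers of glutamate and aspartate split. Slc25a22, a carrier that brings glutamate into mitochondria together with a proton (chromosome 7, 141429749 to 141437874), had the largest rise of the family. Its levels were 38.3 and 39.3 CPM in M0 and 151 and 129.5 CPM in M1. The M0 libraries nearly coincide and both M1 libraries lie more than 3 times higher (3.61-fold, log2 fold change 1.85 ± 0.12, adjusted p = 2.02e-07). Its close relative Slc25a18, a second glutamate carrier, was near the detection floor with 15 and 20 counts in M0 and 13 and 13 in M1 and did not pass (adjusted p = 0.801). The aspartate-glutamate carriers are aralar (Slc25a12) and citrin (Slc25a13), calcium-regulated proteins that export aspartate from mitochondria in exchange for glutamate. They went opposite ways. Slc25a12 was measured at 61.7 and 62.0 CPM in M0 and at 173 and 175 CPM in M1, which is 2.82-fold higher (1.49 ± 0.10, adjusted p = 3.13e-07). Slc25a13 was measured at 69.2 and 69.8 CPM in M0 and at 35.1 and 37.0 CPM in M1, which is 1.93-fold lower (-0.94 ± 0.11, adjusted p = 4.34e-05). Replicates differed far less than groups for both genes, and each call held with any 1 library left out.

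Because the merged exons of Slc25a12 span 7.34 kb and those of Slc25a13 3.80 kb, the pair was also compared per length of exon. On that scale Slc25a12 made up 31.6% and 31.5% of the pair in the M0 libraries and 71.8% and 71.0% in the M1 libraries. Slc25a13 was thus the main transcript of the pair in M0 and Slc25a12 in M1. Among the enzymes of the malate-aspartate shuttle, Got1, the cytosolic aspartate aminotransferase, fell from 98.8 ± 0.687 to 62.2 ± 3.98 CPM. Got2, its mitochondrial counterpart, did not pass (105 ± 3.58 against 123 ± 8.27 CPM). The cytosolic malate dehydrogenase gene Mdh1 fell from 244 ± 1.28 to 166 ± 19.8 CPM, a call that ended when either M0 library was left out. With any 1 library left out its log2 fold change stayed between -0.68 and -0.42.

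The promoter windows of this pair are shown because their transcripts moved apart although the proteins carry the same substrates. Each window comes from the RefSeq promoter table and spans the start site (build GRCm38.p6, minus strand, written 5′ to 3′ along the gene). Capitals mark matches to any of 9 motifs searched on both strands. These were the cyclic AMP response element TGACGTCA, the E-box CACGTG, the AP-1 site TGANTCA, the STAT site TTCNNNGAA, the ETS site CCGGAAG, the oestrogen-related receptor site TCAAGGTCA, the CCAAT box CCAAT, and the kappaB and NRF1 motifs. Slc25a12 lies at chr2:71367706-71368005 and Slc25a13 at chr6:6217124-6217423.
Slc25a12: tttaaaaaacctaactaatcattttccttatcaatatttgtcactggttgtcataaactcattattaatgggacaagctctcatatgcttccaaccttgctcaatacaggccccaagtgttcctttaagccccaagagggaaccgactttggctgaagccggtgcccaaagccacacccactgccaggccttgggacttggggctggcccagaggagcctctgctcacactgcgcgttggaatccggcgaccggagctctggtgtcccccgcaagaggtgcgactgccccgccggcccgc
Slc25a13: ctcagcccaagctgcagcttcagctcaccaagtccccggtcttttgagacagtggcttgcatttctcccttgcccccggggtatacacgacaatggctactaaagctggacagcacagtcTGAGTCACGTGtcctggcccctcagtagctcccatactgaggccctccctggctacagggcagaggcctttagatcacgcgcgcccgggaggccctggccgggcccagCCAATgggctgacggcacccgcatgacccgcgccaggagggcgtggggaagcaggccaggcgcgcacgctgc
The Slc25a12 window holds none of the 9 motifs. The Slc25a13 window holds an AP-1 site that overlaps an E-box by 2 bases, and a CCAAT box nearer the start site. Of all 32851 windows of this length in the RefSeq table, 7.81% hold an AP-1 site, 7.15% an E-box and 37.4% a CCAAT box. Windows were found for 33 of the 43 carriers. These matches describe letters only.

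**Figure D2:**
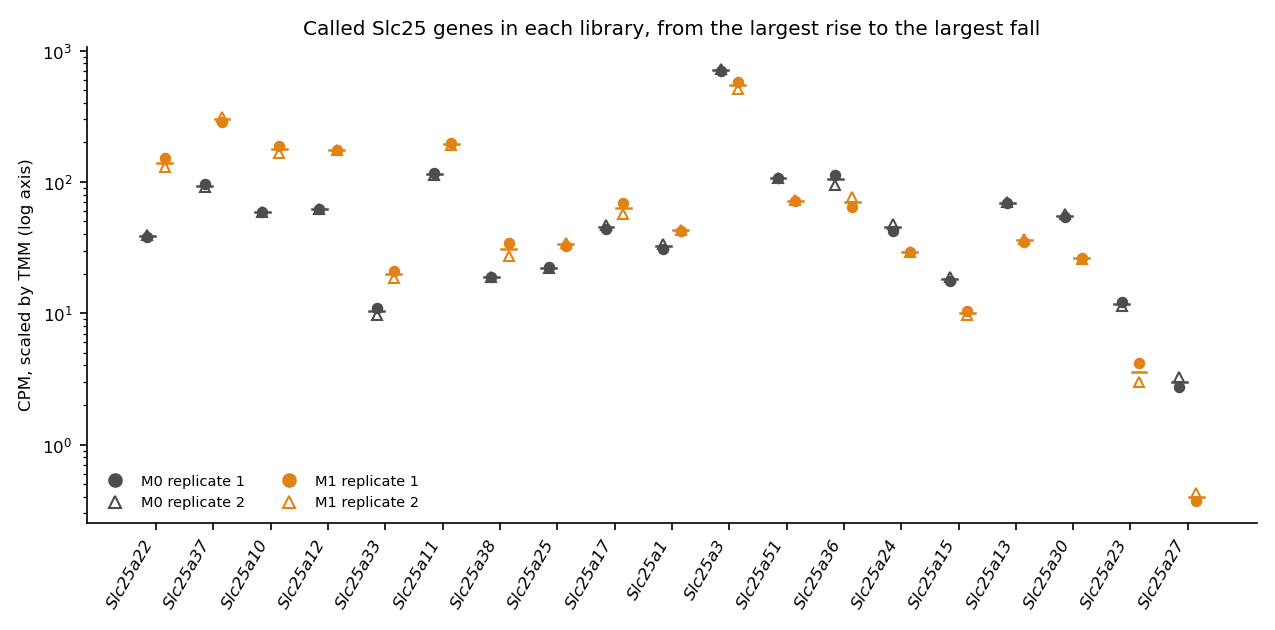
CPM of the called carrier genes described here in each library on a log axis, ordered from the largest rise to the largest fall; filled circles are replicate 1, open triangles replicate 2, and short lines group means. The 4 leftmost genes sit between 38.3 and 96.1 CPM in M0 and between 129.5 and 314 CPM in M1, and no gene shown has overlapping groups.

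The genes listed as other amino acid carriers gave 1 rise and 1 fall among 5 tested. Slc25a15, the ornithine carrier of the urea cycle, which trades ornithine for citrulline (chromosome 8, 22375550 to 22398621), had 17.6 and 18.7 CPM in M0 and 10.3 and 9.66 CPM in M1. Its M1 values lay below both M0 values, a 1.81-fold fall (log2 fold change -0.86 ± 0.18, adjusted p = 0.00212). On the list of ornithine and urea cycle enzymes 5 of 7 tested genes rose and none fell. Oat and Asl of that list did not pass (log2 fold changes -0.12 and 0.31, adjusted p = 0.366 and 0.132). The argininosuccinate synthase gene Ass1 rose from 0.485 ± 0.195 to 14.6 ± 0.659 CPM and Arg1, an arginase gene, from 0.972 ± 0.0185 to 5.72 ± 1.48 CPM. Otc, the mitochondrial enzyme that turns ornithine into citrulline, had no count in any library. Slc25a38, which carries glycine into mitochondria for heme synthesis, rose 1.63-fold, from 18.9 and 18.8 CPM to 34.1 and 27.4 CPM (adjusted p = 0.00336). Leaving out either M0 library ended this call, in fits that keep 1 M0 library. The log2 fold change was 0.71 with all libraries and 0.71 without either M0 library. Slc25a44, a carrier of branched-chain amino acids, did not pass, with 35.0 ± 0.226 against 42.3 ± 1.55 CPM (adjusted p = 0.0875). Slc25a45 and Slc25a47 did not pass either, with log2 fold changes of 0.24 and 0.78 (adjusted p = 0.147 and 0.183). Slc25a47 stands in this group by list only, and its substrate is not given in the sources used here. Slc25a2, a second ornithine carrier, and Slc25a29, which carries basic amino acids, were below the filter with at most 4 and 13 counts in a library.

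The mitoferrins bring iron into mitochondria, where it is built into heme and iron-sulfur clusters. Mitoferrin 1, encoded by Slc25a37 and best known from red cell precursors (chromosome 14, 69241848 to 69285544), stood at 96.1 and 91.0 CPM in M0 and at 286.5 and 314 CPM in M1. The 2 groups were far apart, a 3.21-fold rise (log2 fold change 1.68 ± 0.10, adjusted p = 1.36e-07). Mitoferrin 2, encoded by Slc25a28 and expressed broadly, had 19.4 and 25.5 CPM in M0 and 25.2 and 24.9 CPM in M1. These groups overlap and the gene did not pass (0.16 ± 0.17, adjusted p = 0.451). Per length of exon, Slc25a37 made up 75.5% and 68.9% of the pair in M0 and 87.6% and 88.7% in M1. Of 11 erythroid markers 6 are listed in the files. Hba-a2 had no count, and Hba-a1, Klf1 and Alas2 had at most 8 counts in any library. Epor, the erythropoietin receptor gene, was detected in M0 with 132 and 73 counts and fell in M1 to 4 and 4 counts (-4.39 on the log2 scale, adjusted p = 4.17e-05), opposite to Slc25a37. The summed erythroid level of 390 and 354 CPM in M0 and of 275 and 268 CPM in M1 was mostly Tfrc, the transferrin receptor, which many cells express.

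Of 11 tested genes of mitochondrial iron use, 3 were higher, 3 lower and 5 not past the threshold. Alas1, the first enzyme of heme synthesis in cells other than red cell precursors, rose from 120 ± 16.7 to 318 ± 13.1 CPM. Fech, which inserts iron into heme as the last step, fell from 54.0 ± 4.5 to 32.9 ± 1.75 CPM. Abcb10, an inner-membrane transporter known to bind mitoferrin 1, fell from 21.7 ± 0.633 to 7.84 ± 1.26 CPM (-1.47 on the log2 scale, adjusted p = 7.12e-05), opposite to Slc25a37.

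Carriers of adenine nucleotides and phosphate included the most abundant members, Slc25a5 and Slc25a3. Slc25a5 encodes the ADP/ATP carrier best known from proliferating cells, and per length it was the highest carrier in every library, at 220 and 227 CPM per kb in M0 and 244 and 247.5 CPM per kb in M1. That order rests on the lengths used, since the merged exons of Slc25a3 span 5.55 kb and those of Slc25a5 1.65 kb. In CPM, without length, Slc25a3 was higher than Slc25a5 in every library. The CPM values of Slc25a5 were 363 and 373 in M0 and 402 and 407 in M1, which did not pass (log2 fold change 0.14 ± 0.09, adjusted p = 0.234). Its counts are uncertain, since 33.8% of the 50-base words in its annotated transcripts also occur in other genes, the largest sharer being the processed pseudogene Gm5560. Slc25a4, the ADP/ATP carrier best known from heart and muscle, had 100.1 and 113 CPM in M0 and 94.8 and 80.9 CPM in M1. The groups do not overlap but the difference did not pass (-0.28 ± 0.12, adjusted p = 0.0735); without M1 replicate 1 it did (-0.40, adjusted p = 0.024). Slc25a4 accounted for 16.2% and 17.5% of the pair per length in M0 and for 14.2% and 12.2% in M1. Slc25a31, the ADP/ATP carrier known from testis, had 4 and 4 counts in M0 and none in M1. The phosphate carrier gene Slc25a3, which also supplies copper to cytochrome oxidase, fell 1.32-fold, from 700.5 and 728 CPM to 573 and 511 CPM (-0.40 ± 0.10, adjusted p = 0.006). It no longer passed with either M0 library left out, in fits that keep 1 M0 library. The log2 fold change of Slc25a3 was -0.42 without M0 replicate 1 and -0.37 without M0 replicate 2.

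Carriers of ATP-Mg and phosphate adjust the adenine nucleotide pool of the matrix and carry calcium-binding domains. Their 3 listed genes all changed, in both directions. Slc25a23 had 12.2 and 11.3 CPM in M0 and 4.19 and 3.01 CPM in M1, a 3.26-fold fall (log2 fold change -1.70 ± 0.26, adjusted p = 0.000238). Slc25a24 had 42.1 and 48.1 CPM in M0 and 29.4 and 29.4 CPM in M1, a 1.53-fold fall (adjusted p = 0.00249). Slc25a25 had 22.4 and 21.96 CPM in M0 and 32.4 and 34.5 CPM in M1, a 1.51-fold rise (adjusted p = 0.00423). Within each gene the M0 and M1 libraries stood apart. Leaving out M0 replicate 2 ended the call of Slc25a24 (log2 fold change -0.51). Leaving out M0 replicate 1 or 2 ended that of Slc25a25 (0.61 and 0.58, beside 0.59 with all libraries). These fits keep 1 M0 library. Slc25a24 stayed the largest of the set per length, with 70.4% and 74.0% in M0 and 63.5% and 63.3% in M1, while Slc25a25 went from 16.4% and 14.7% to 30.6% and 32.4%. Slc25a23 went from 13.2% and 11.3% to 5.87% and 4.21%. The order in M1 rests on the lengths used, since the merged exons of Slc25a24 span 3.43 kb and those of Slc25a25 7.86 kb. In CPM, without length, Slc25a25 was higher than Slc25a24 in both M1 libraries.

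**Figure D3:**
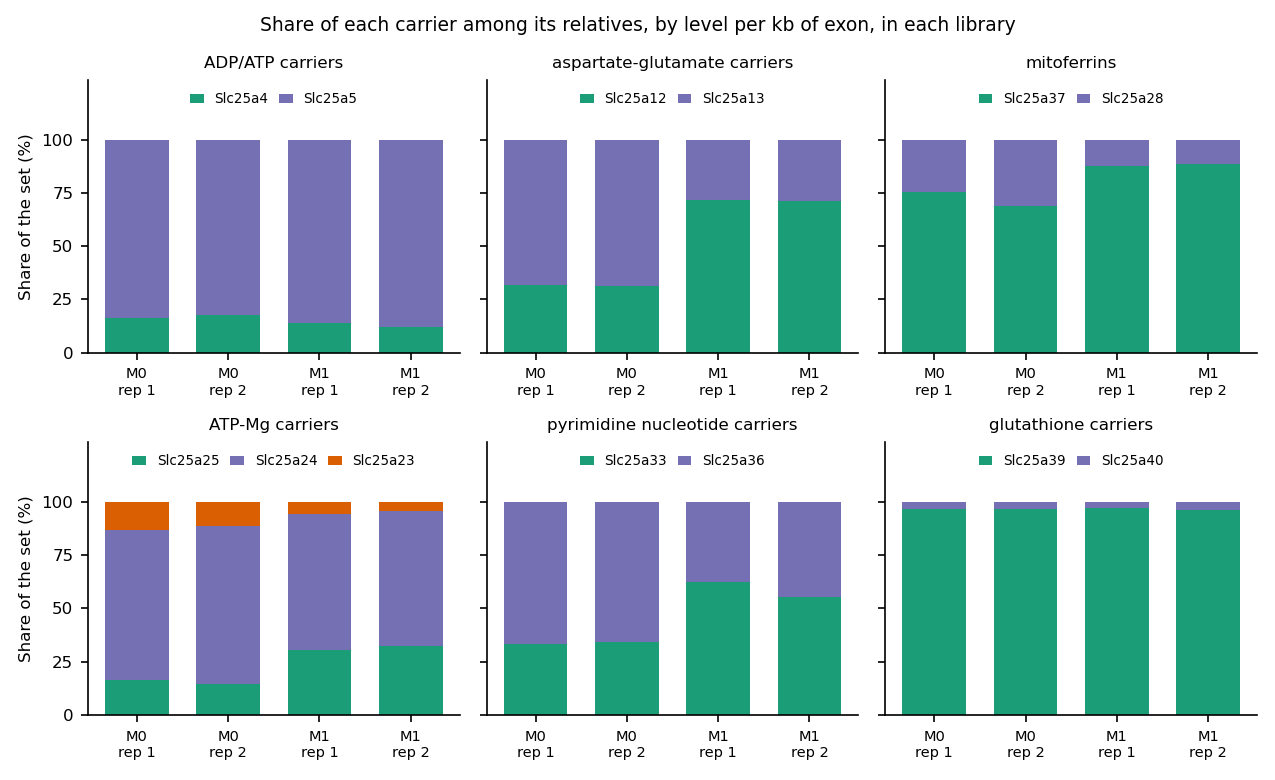
Share of each carrier in 6 sets of relatives, as percent of the set's summed CPM per kb of exon (y axis), in the 4 libraries (x axis). Slc25a12 goes from 31.6% and 31.5% in M0 to 71.8% and 71.0% in M1, while Slc25a39 lies between 96.3% and 97.2% of the glutathione pair.

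The carriers of pyrimidine nucleotides, which supply the matrix for mitochondrial DNA and RNA synthesis, also moved apart. Slc25a33 (chromosome 4, 149744036 to 149774267) had 11.0 and 9.73 CPM in M0 and 20.9 and 18.7 CPM in M1, a 1.90-fold rise (log2 fold change 0.93 ± 0.18, adjusted p = 0.00131). An antisense gene overlaps 14.9% of its exons, so part of its counts is uncertain. Slc25a36 (chromosome 9, 97075281 to 97111041) had 113.5 and 95.2 CPM in M0 and 64.5 and 76.3 CPM in M1, a 1.48-fold fall (-0.57 ± 0.13, adjusted p = 0.00347). Libraries of 1 group differed visibly for Slc25a36, and its call was lost without M0 replicate 1 (log2 fold change -0.43). Per length Slc25a33 made up 33.1% and 34.2% of the pair in M0 and 62.2% and 55.5% in M1; the exons of Slc25a36 span 9.59 kb and those of Slc25a33 1.89 kb.

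Promoter windows of this second pair are shown for the same reason, with the same motifs in capitals: Slc25a33 at chr4:149774218-149774517 and Slc25a36 at chr9:97110992-97111291, both on the minus strand of GRCm38.p6 and read along the gene.
Slc25a33: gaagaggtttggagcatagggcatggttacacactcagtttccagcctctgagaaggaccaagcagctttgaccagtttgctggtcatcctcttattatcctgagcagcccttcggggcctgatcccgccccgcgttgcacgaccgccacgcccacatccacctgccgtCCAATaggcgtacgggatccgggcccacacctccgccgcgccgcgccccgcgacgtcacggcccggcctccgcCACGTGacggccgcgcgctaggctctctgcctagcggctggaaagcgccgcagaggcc
Slc25a36: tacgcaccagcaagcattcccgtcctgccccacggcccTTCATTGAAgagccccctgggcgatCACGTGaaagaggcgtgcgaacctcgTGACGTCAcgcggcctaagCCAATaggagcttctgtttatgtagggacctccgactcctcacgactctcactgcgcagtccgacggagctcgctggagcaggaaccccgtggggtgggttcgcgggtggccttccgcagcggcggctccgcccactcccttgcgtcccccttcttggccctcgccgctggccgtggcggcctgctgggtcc
Both windows hold an E-box and a CCAAT box. The window of Slc25a36 also holds a cyclic AMP response element, present in 1.79% of all windows, and a STAT site, present in 8.30%. For the motifs not found in the windows of either pair, the shares were 8.86% for the ETS site, 0.423% for the oestrogen-related receptor site, 4.51% for kappaB and 1.27% for NRF1.

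Carriers of other cofactors moved both ways. Slc25a51, the mitochondrial NAD carrier (chromosome 4, 45395923 to 45408917), fell 1.48-fold, from 107 and 107 CPM to 71.2 and 73.0 CPM, with almost no spread between libraries of a group (log2 fold change -0.57 ± 0.10, adjusted p = 0.000836). In the same cells Nampt, which makes the NAD precursor nicotinamide mononucleotide, rose from 281 ± 23.1 to 567 ± 52.6 CPM. On the same list Nmnat3 and Nadk2 were lower (log2 fold changes -0.85 and -0.56), and Nmnat1 did not pass (0.54). Slc25a17, a carrier of CoA and other cofactors in the peroxisome membrane, rose 1.38-fold, from 44.0 and 47.2 CPM to 68.9 and 57.0 CPM (adjusted p = 0.011). Its call was lost without M0 replicate 1 (log2 fold change 0.42), M0 replicate 2 (0.52) or M1 replicate 1 (0.32), beside 0.47 with all libraries.

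Other cofactor carriers did not pass. Slc25a16 and Slc25a42, which carry CoA, had log2 fold changes of -0.39 and -0.55 (adjusted p = 0.053 and 0.258). The genes for pantothenate kinases, which start CoA synthesis, were lower: Pank1 fell from 14.6 ± 0.382 to 5.05 ± 0.433 CPM and Pank3 from 166 ± 14.5 to 94.3 ± 2.83 CPM. Slc25a32, a carrier of folate and FAD, did not differ past the threshold, with 36.8 ± 1.58 against 32.8 ± 2.06 CPM (adjusted p = 0.315). Mthfd2, an enzyme of mitochondrial folate metabolism, rose from 84.5 ± 5.16 to 182 ± 9.08 CPM. The other folate enzymes listed did not rise: Shmt2 was lower (log2 fold change -0.27) and Mthfd1l did not pass (-0.29). Slc25a26, the carrier of S-adenosylmethionine, differed by nearly a factor of 2 between libraries of 1 group, with 11.4 and 6.26 CPM in M0 and 8.43 and 4.55 CPM in M1, with overlapping groups (adjusted p = 0.313). Without M1 replicate 1, Slc25a16 and Slc25a26 passed as lower (-0.58, adjusted p = 0.0135, and -0.96, adjusted p = 0.0494).

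The uncoupling-protein-like carriers gave the largest fall. Slc25a27, known from nerve tissue as UCP4, had 57 and 56 counts in M0 and 6 and 7 in M1, which is 2.73 and 3.24 CPM against 0.369 and 0.431 CPM. The fall of 7.35-fold rests on few counts (log2 fold change -2.88 ± 0.55, adjusted p = 0.00129), and the call held with any 1 library left out. Slc25a30, a kidney carrier of this group (chromosome 14, 75757534 to 75787037), fell 2.11-fold, from 53.9 and 56.5 CPM to 26.3 and 26.0 CPM (-1.08 ± 0.12, adjusted p = 2.65e-05). Slc25a14, known as UCP5, had overlapping groups of 6.01 ± 0.0234 and 6.61 ± 1.44 CPM (adjusted p = 0.70). Ucp2, an uncoupling protein gene of the same family under another symbol, fell from 1113 ± 1.67 to 673 ± 6.25 CPM (-0.73, adjusted p = 5.37e-05). Ucp1 and Ucp3 had at most 5 counts in a library.

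Neither glutathione carrier passed. Slc25a39, one of the most abundant carriers, had 169.5 and 189 CPM in M0 and 183 and 164 CPM in M1, with overlapping groups (log2 fold change -0.05 ± 0.10, adjusted p = 0.738). Slc25a40, its relative, had 18.4 and 18.6 CPM in M0 and 15.9 and 19.0 CPM in M1 (-0.08 ± 0.17, adjusted p = 0.72), again overlapping. Around them, glutathione reductase, Gsr, rose from 141 ± 11.8 to 373 ± 9.50 CPM, and Gclc, the catalytic subunit of the first synthesis step, fell from 136 ± 1.21 to 91.4 ± 6.78 CPM.

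The remaining members had no call. Slc25a46, an outer-membrane protein involved in mitochondrial shape, had 84.0 and 71.6 CPM in M0 and 69.8 and 53.7 CPM in M1 (difference on the log2 scale -0.33 ± 0.14, adjusted p = 0.0741), and passed as lower without M1 replicate 1 (-0.54, adjusted p = 0.00809). Slc25a35, Slc25a43 and Slc25a53, whose substrates are not settled, had log2 fold changes of 0.98, 0.67 and -0.49 (adjusted p = 0.0508, 0.0522 and 0.388). The first of them shares 31.3% of its exons with Rangrf on the other strand and is uncertain; it passed as higher without M1 replicate 1 (1.22, adjusted p = 0.0348). Slc25a34 had at most 8 counts in a library and was not tested.

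Levels between genes were compared per kb of merged exon, and the order was not repeated with other gene lengths. In M0 the order began with Slc25a5 (mean 223.5 CPM per kb), Slc25a3 (129), Slc25a39 (65.1), Slc25a11 (54.0) and Slc25a4 (45.3). In M1 it was Slc25a5 (246), Slc25a3 (97.7), Slc25a11 (91.8), Slc25a39 (63.0), Slc25a10 (51.3) and Slc25a37 (49.9). The library values of Slc25a3 and Slc25a11 in M1 were close, at 103 and 92.1 against 93.9 and 89.6 CPM per kb, and overlap, as do those of Slc25a10 and Slc25a37. Slc25a10 went from rank 8 in M0 to rank 5 in M1, and Slc25a37 from rank 11 to rank 6. Together Slc25a3 and Slc25a5 made up 45.7% and 46.1% of the summed carrier level per kb in M0 and 38.6% and 39.5% in M1. The direction of the family's total depended on the scaling: all 43 carriers took 0.283% and 0.284% of raw library counts in M0 and 0.275% and 0.266% in M1, while their TMM-scaled sum was 2580 and 2617 CPM in M0 and 3023 and 2881 CPM in M1.

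**Figure D4:**
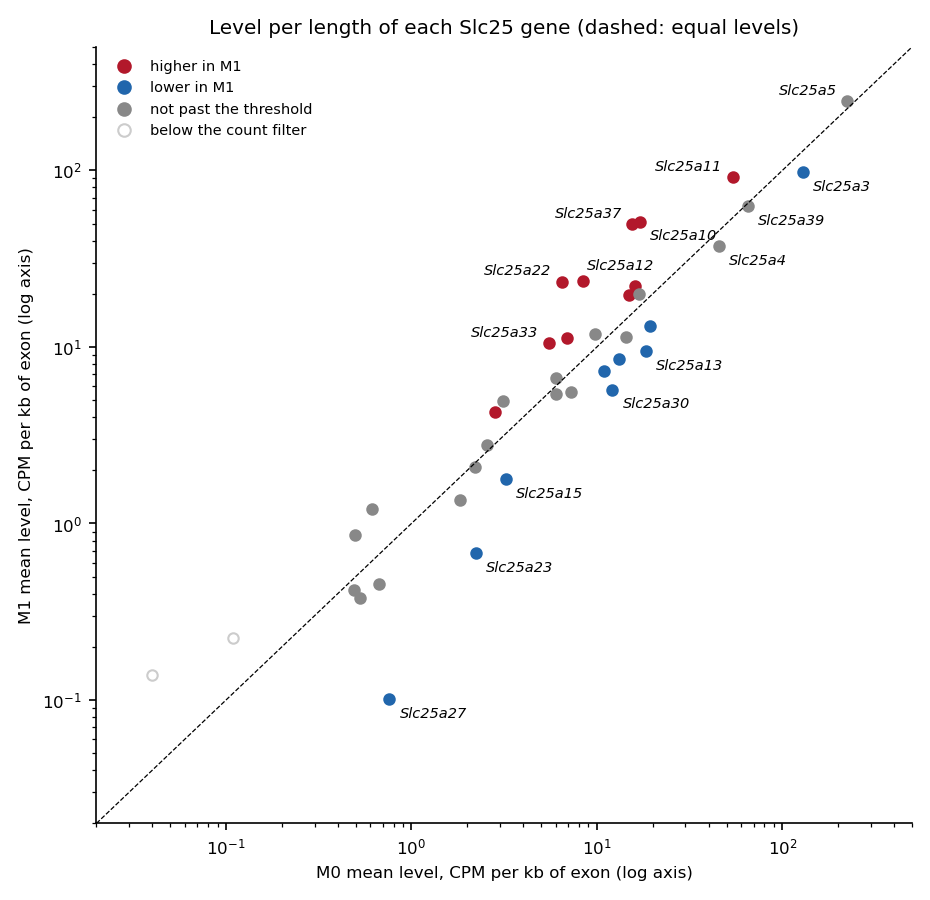
Mean level of the carrier genes described here in M0 (x axis) and M1 (y axis) as CPM per kb of merged exon, both on log axes; the dashed line marks equal levels, and Slc25a2, Slc25a21 and Slc25a31, absent from at least 1 group, are not drawn. Slc25a5 is at the top right at 223.5 and 246 CPM per kb, and Slc25a27 lies farthest below the line.

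Genes that work beside the carriers were counted on 9 lists with 84 tested genes, of which 29 were higher, 23 lower and 32 not past the threshold. Over all tested genes 24.2% were higher and 24.0% lower, 48.2% in all, and the counts of each list stand beside that background; no list was tested against it. Scaling by library totals gave 17 higher and 28 lower. Fewer partner genes were called in each direction without either M0 library, in fits that keep 1 M0 library. Carriers are imported with the help of the outer-membrane receptor Tomm70a and small chaperones between the membranes. On this import list 5 of 13 rose and 1 fell: Tomm40, the outer-membrane pore, rose from 41.7 ± 0.287 to 66.5 ± 6.42 CPM, Tomm20, a receptor, fell from 46.2 ± 0.933 to 27.8 ± 1.27 CPM, and Tomm70a did not pass (180 ± 3.52 against 202 ± 6.48 CPM). Of the outer-membrane list 3 of 4 rose. Vdac3, a metabolite pore, rose from 70.4 ± 6.73 to 137 ± 18.0 CPM and Tspo, a cholesterol-binding protein, from 56.5 ± 10.7 to 360 ± 83.5 CPM, while Vdac1 did not pass (235 ± 9.10 against 249 ± 15.7 CPM). Other inner-membrane carriers and channels gave 5 rises and 4 falls among 16. Mcub, an inhibitory subunit of the mitochondrial calcium channel, rose from 19.6 ± 3.06 to 38.9 ± 4.45 CPM, and the pyruvate carrier genes Mpc1 and Mpc2 did not pass (adjusted p = 0.614 and 0.73).

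**Figure D5:**
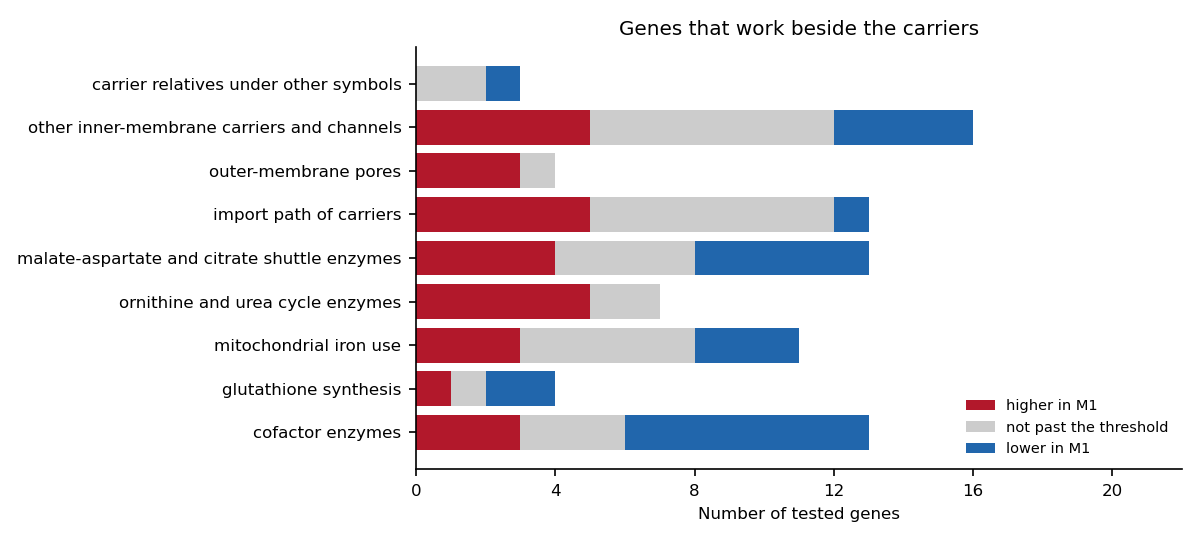
Number of tested genes (x axis) on each of the 9 lists of genes that work beside the carriers (y axis), split into higher in M1 (red), not past the threshold (grey) and lower (blue). The list of ornithine and urea cycle enzymes has 5 rises and no fall, and the list of cofactor enzymes 3 rises and 7 falls.

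By list, shuttle enzymes of malate, aspartate and citrate gave 4 rises and 5 falls among 13, with Idh1, the cytosolic isocitrate dehydrogenase, falling from 308 ± 20.9 to 91.1 ± 2.01 CPM and Me1, the cytosolic malic enzyme, rising from 9.61 ± 0.912 to 24.5 ± 1.84 CPM. Ornithine and urea cycle enzymes rose in 5 of 7 cases with none lower, among them Nos2, the inducible nitric oxide synthase, with 6 and 0 counts in M0 and 842 and 870 in M1. The glutathione synthesis list gave 1 rise and 2 falls among 4. The rise was that of Gsr, a reductase and not a synthesis enzyme. Enzymes of cofactor metabolism gave 3 rises and 7 falls among 13. Relatives of the carriers under other symbols gave 1 fall, that of Ucp2, among 3.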

How the data were processed

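Raw counts were deposited by the authors as 1 table of gene symbols per library; the submitters' processing notes name featureCounts in Subread 2.0.1, mm10, DESeq2 1.30.1 and R 4.0.4. The annotation, strand setting and any gene filter are not given in the sources used here. Depth was 15921466 to 18987705 counts. After a filter on low counts (filterByExpr, minimum count 10, minimum total 15) M1 was compared with M0 over 12966 genes by the quasi-likelihood test of edgeR 4.0.16 in R 4.3.3 (TMM factors, group only, 2 residual degrees of freedom), with Benjamini-Hochberg adjustment and a threshold of 0.05. In counts simulated for this comparison over 12707 genes, 85.4% of 198 genes changed by a log2 of 1 were recovered and 3.43% of calls were false. That simulation changed few genes, all by the same amount, and gave every gene the same dispersion. In the data 48.2% of tested genes were called and many changes were smaller, so these rates do not carry over to the calls reported here. Exon lengths and overlaps came from GENCODE M21, gene positions and promoters from RefSeq on GRCm38.p6, the assembly of mm10; all 43 symbols matched both. Members and lists were chosen with earlier results of these data known. Counts over members and lists include genes whose own values are not reported here; all other members are covered. From each list of partner genes, at most 4 called genes with the largest changes were eligible, and those also called with each library left out were named. Ucp1, Ucp3, Mpc1, Mpc2, Vdac1, Tomm70a, Got1, Got2, Mdh1, Acly, Otc and Pank3 fall outside this rule and were chosen after their values were seen. The same holds for Nmnat1, Nmnat3, Nadk2, Shmt2, Mthfd1l, Oat and Asl. Alternatives were other scaling factors, library totals, other filters, DESeq2 1.42.0, limma-voom (limma 3.58.1), glmTreat at a fold of 1.2, a block for replicate number, leaving out each library, and other gene lengths.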

Additional observations from a re-analysis of the deposited data

How the results depend on the processing

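Of 20 called carriers, 12 were called under all 13 alternatives: Slc25a10, Slc25a11, Slc25a12, Slc25a13, Slc25a15, Slc25a22, Slc25a23, Slc25a27, Slc25a30, Slc25a33, Slc25a37 and Slc25a51. No called carrier changed sign. Scaling by library totals shifted the all-gene median by -0.252 on the log2 scale and upper-quartile factors by -0.104; they gave 7 and 10 carriers higher and 14 and 12 lower. The carriers' median, 0.045, was then -0.207 and -0.058; it was 0.132 with the stricter filter, which removed 1 member, and ranged from 0.008 to 0.127 with 1 library left out. Leaving out 1 library gave 6 to 10 carriers higher, 7 to 13 lower, 15 to 29 genes of the partner lists higher and 10 to 22 lower. Library totals gave 17 partner genes higher. Under that scaling the calls of Slc25a1, Slc25a17 and Slc25a25 were among those lost (log2 fold changes 0.15, 0.21 and 0.34, adjusted p = 0.338, 0.177 and 0.0575). Slc25a4, Slc25a16, Slc25a32, Slc25a39 and Slc25a46 passed as lower there (-0.53, -0.64, -0.42, -0.30 and -0.59). With the replicate block 12 carriers were higher and 10 lower, as Slc25a16 and Slc25a43 passed. The correlation over genes of deviations between same-numbered libraries was -0.0757. This value cannot show whether same-numbered libraries share a mouse, culture or batch. Among genes without a call, library totals turned Slc25a5 (-0.11), Slc25a14 (-0.11), Slc25a28 (-0.09) and Slc25a45 (-0.01). With 1 library left out, uncalled genes ranged through 0 on the log2 scale: Slc25a14 from -0.10 to 0.36, Slc25a18 from -0.53 to 0.16, Slc25a26 from -0.96 to 0.05, Slc25a28 from -0.03 to 0.38, Slc25a39 from -0.13 to 0.04 and Slc25a40 from -0.20 to 0.04. The rise in per-length share, in percentage points, was 39.9 for Slc25a12, 15.9 for Slc25a37, 16.0 for Slc25a25 and 25.2 for Slc25a33; without length it was 35.7, 11.6, 22.3 and 13.0, and with the longest transcript 21.7 for Slc25a25. For Slc25a39 it was 0.0588, from -0.38 to 0.498 with 1 library left out, and -0.0959 without M0 replicate 1. The cause of these shifts was not tested. The 5 untested members had at most 13 counts in a library, too few to pass the filter.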
